A study of Saccharomyces cerevisiae with 6 samples.

Results

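Glycine cleavage and one-carbon folate metabolism was followed in Saccharomyces cerevisiae through 8 genes, GCV1, GCV2, GCV3, SHM1, SHM2, MTD1, MIS1 and ADE3. They were picked by gene symbol among the 5449 genes that the array measured, and each of the 8 is read by 1 probe set. The study put glucose-grown cultures of strains that had been evolved on galactose beside an unevolved strain, so the comparison asks what adaptation to one sugar leaves behind on another. The evolved strains were 62A (1 array), 62B (2 arrays) and 62C (1 array), and the reference was the wild type CEN.PK113-7D (2 arrays), which is also the background of the evolved strains. All cultures were held at pH 5.0 in fermenters with a minimal medium on glucose, and cells were sampled during mid exponential growth. The labels name no mutation in any evolved strain, and they do not say whether arrays of the same strain came from separate cultures. The evolved class thus holds 3 strains, and the p-values reflect the scatter of these arrays or strains alone, which may be technical.

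The glycine cleavage system is an enzyme complex of the mitochondrion that splits glycine into carbon dioxide, ammonia and a carbon unit, which it hands to tetrahydrofolate. Serine hydroxymethyltransferases exchange the same kind of unit between serine and glycine, and folate enzymes in mitochondrion and cytosol then convert it to the forms that feed purine, thymidylate and methionine synthesis. In yeast the glycine cleavage genes are induced by glycine, and the transcription factor Bas1 activates genes of purine synthesis together with genes of this pathway.

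Values are log2 expression values made with RMA, a method that brings all arrays to a common distribution, so a lower value means less of a transcript relative to the others. Arrays of a pair lay close together, with an SD of the log2 difference over all genes of 0.0695 for 62B and 0.0956 for the reference. All 8 genes lay far above the background of 5.07, the 95th percentile of probe sets for another yeast species. The 3' minus 5' difference over 8 control genes, a measure of RNA integrity, was highest in 62B, at 2.01 and 2.05. It was 1.90 and 1.84 in the reference, 1.89 for the 62A array and 1.73 for the 62C array. A separate ACT1 probe pair gave 1.58 and 1.73 in 62B, 1.40 and 1.27 in the reference, 1.49 for 62A and 1.41 for 62C.

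Most genes of the pathway were lower in the evolved strains than in the reference. GCV2, the glycine-binding decarboxylase subunit, had the largest change and stood at 0.574 of the reference level over the evolved class (log2 change −0.80 ± 0.12, SE, 3 strains against 2 reference arrays, limma adjusted p = 0.0416). MTD1, a cytosolic methylenetetrahydrofolate dehydrogenase, stood at 0.674 (−0.57 ± 0.06, limma adjusted p = 0.0331), and SHM2, the cytosolic serine hydroxymethyltransferase, at 0.743 (−0.43 ± 0.07, limma adjusted p = 0.0419). These were the 3 of 8 members that passed the threshold of 0.05 downward, and 0 passed upward. Over all genes, 2.79% passed downward. The median change of the 8 members was −0.47, against −0.03 over all genes tested. In 7 of 8 members all 4 evolved arrays lay below both reference arrays, an arrangement found in 27.4% of all genes. The ACT1 3' minus 5' difference was higher on all 4 evolved arrays (1.41 to 1.73) than on both reference arrays (1.27 and 1.40). Over the 8 control genes the groups overlapped, with 1.73 to 2.05 on evolved arrays and 1.90 and 1.84 on reference arrays. The part of either difference in the class changes was not tested.

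Few arrays carry these class calls. Leaving out 62A ended every call among the members, where 6 of all genes passed in either direction. Leaving out 62C kept MTD1 alone, where 99 of all genes passed. Leaving out both 62B arrays brought all 8 members past the threshold, where 1318 of all genes passed. Leaving out a reference array leaves 1, so no call is given. The changes were then −0.85 or −0.75 for GCV2, −0.63 or −0.51 for MTD1 and −0.45 or −0.41 for SHM2. With each array as a sample and strain as a random block, the 3 calls were lost (limma adjusted p = 0.0785 for GCV2, 0.0611 for MTD1 and 0.0849 for SHM2). Over all genes 21 passed there. In limma, 7 of the 8 had an unadjusted p under 0.05 in the full comparison, as had 1555 of all 5449 genes.

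Each strain was also set against the reference singly, with a separate coefficient for every strain and all 6 arrays in the model. The 3 strain comparisons share the same reference arrays, so they are not independent of one another. All 8 members passed downward in 62A, where 14.9% of all genes did. In 62B 7 of 8 did, against 21.3% of all genes, and the exception was MIS1. All 8 passed downward in 62C, against 23.3% of all genes. The member medians were −0.38 in 62A, −0.47 in 62B and −0.57 in 62C, beside −0.04, −0.01 and −0.04 over all genes. Because 62A and 62C have 1 array each, their errors are borrowed from the spread within the 62B and reference pairs.

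**Figure D1:**
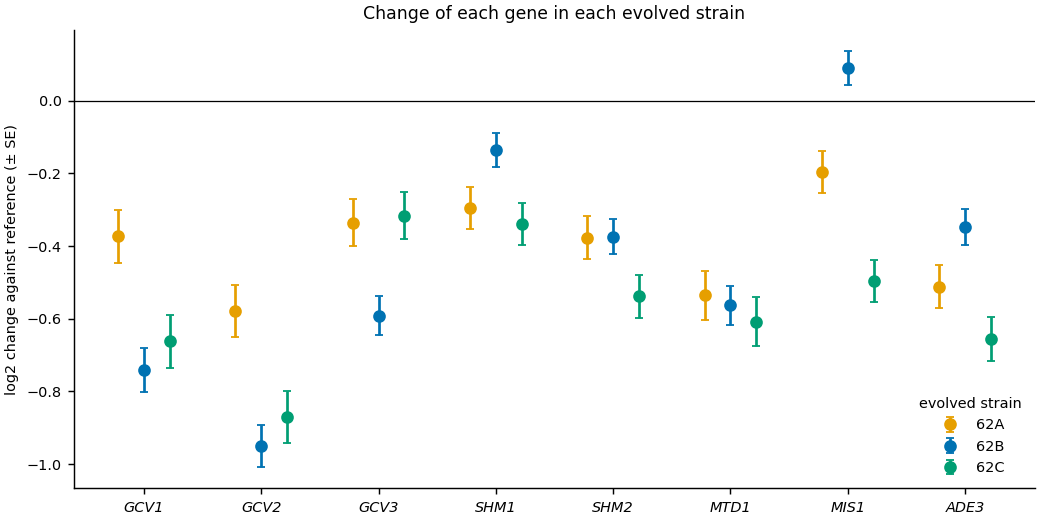
Log2 change against the reference of each of the 8 genes in 62A, 62B and 62C; points are fitted changes and bars are ± 1 SE of the fit over 6 arrays. Each of the 3 GCV genes is lowest in 62B, while MIS1 is above 0 in 62B (0.09) and at −0.50 in 62C.

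Among the glycine cleavage genes, GCV2 (YMR189W) read 9.75 and 9.86 on the reference arrays, 9.23 in 62A, 8.91 and 8.80 in 62B, and 8.93 in 62C. Its lowest reference value exceeded its highest evolved value by 0.53. GCV1 (YDR019C), the aminomethyltransferase subunit, read 9.18 and 9.34 in the reference, 8.89 in 62A, 8.54 and 8.50 in 62B, and 8.60 in 62C. Evolved and reference arrays were again apart, with 62A the nearest to the reference. GCV3 (YAL044C), the lipoyl-carrying H protein, read 10.59 and 10.65 in the reference, 10.28 in 62A, 10.08 and 9.98 in 62B, and 10.30 in 62C. Here both 62B arrays lay below 62A and 62C, which differed from each other by 0.02 ± 0.08.

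**Figure D2:**
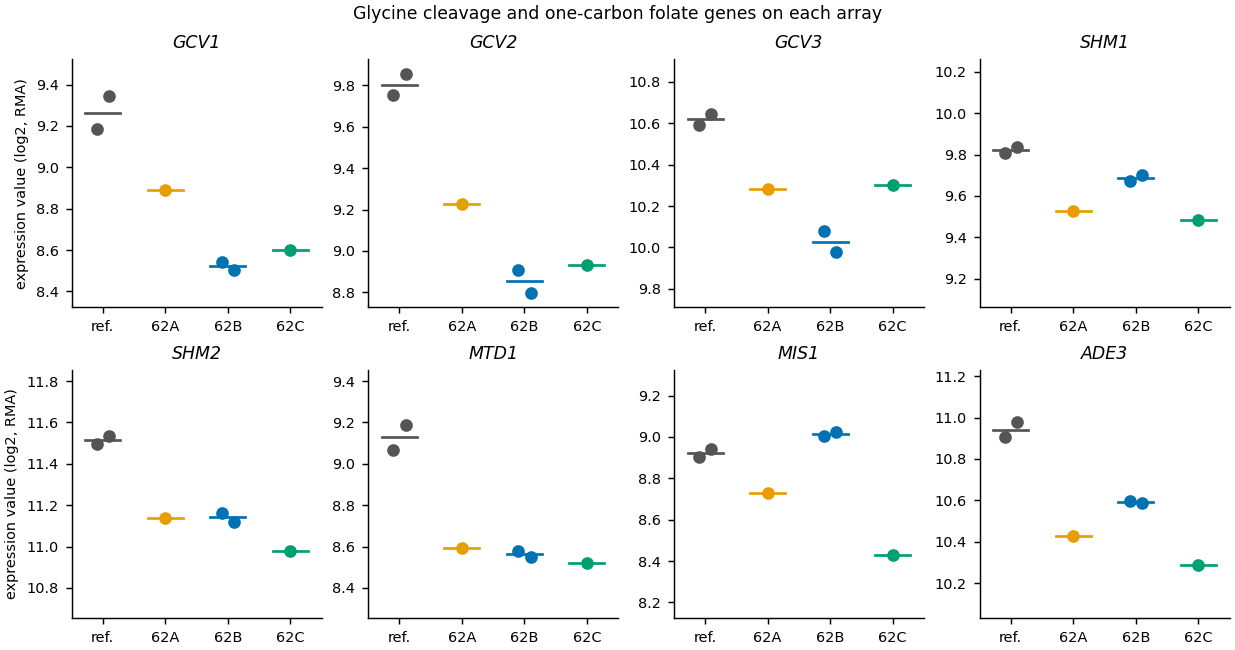
RMA log2 expression value of each gene on every array; each point is 1 array, the line is the mean of a strain's arrays, and every panel spans the same log2 range. In all genes but MIS1 the evolved arrays sit below both reference arrays.

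In single strains GCV2 was lower by a log2 change of −0.58 ± 0.07 in 62A, −0.95 ± 0.06 in 62B and −0.87 ± 0.07 in 62C, the lowest standing at 0.517 of the reference level. GCV1 had changes of −0.37 ± 0.07, −0.74 ± 0.06 and −0.66 ± 0.07, and GCV3 of −0.34 ± 0.07, −0.59 ± 0.05 and −0.32 ± 0.07. The highest limma adjusted p among these 9 values was 0.00643. Over the class, GCV1 (−0.59 ± 0.12, limma adjusted p = 0.0581) and GCV3 (−0.41 ± 0.10, limma adjusted p = 0.069) missed the threshold.

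Both serine hydroxymethyltransferase genes read lower on every evolved array. SHM2 (YLR058C) read 11.50 and 11.53 in the reference, 11.14 in 62A, 11.16 and 11.12 in 62B, and 10.98 in 62C. All evolved arrays lay below the reference by at least 0.33. SHM1 (YBR263W), the mitochondrial isozyme, read 9.81 and 9.84 in the reference, 9.53 in 62A, 9.67 and 9.70 in 62B, and 9.48 in 62C. The gap between the lower reference array and the higher 62B array was 0.11, the smallest among the 7 members whose groups did not overlap. The change of SHM1 was −0.29 ± 0.06 in 62A, −0.14 ± 0.05 in 62B and −0.34 ± 0.06 in 62C, all past the threshold (limma adjusted p = 0.0434 in 62B, the highest of the 3). The 62B call was lost without either 62B array (limma adjusted p = 0.259 and 0.165) and without the second reference array (0.079). Over the class SHM1 had a change of −0.26 ± 0.07 (limma adjusted p = 0.099).

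Of the folate-converting enzymes, MTD1 (YKR080W) read 9.07 and 9.19 in the reference, 8.59 in 62A, 8.58 and 8.55 in 62B, and 8.52 in 62C. The 4 evolved arrays spanned less than the gap of 0.48 that parted them from the reference. Its changes in single strains were −0.54 ± 0.07, −0.56 ± 0.05 and −0.61 ± 0.07. ADE3 (YGR204W), the cytosolic trifunctional C1-tetrahydrofolate synthase, read 10.91 and 10.98 in the reference, 10.43 in 62A, 10.60 and 10.59 in 62B, and 10.29 in 62C. It was thus least changed in 62B, with −0.35 ± 0.05, beside −0.51 ± 0.06 in 62A and −0.65 ± 0.06 in 62C. Over the class it had a change of −0.51 ± 0.10 that narrowly missed the threshold (limma adjusted p = 0.0524).

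MIS1 (YBR084W), the mitochondrial counterpart of ADE3, was the member that departed from the rest. It read 8.91 and 8.94 in the reference, 8.73 in 62A, 9.00 and 9.02 in 62B, and 8.43 in 62C. Both 62B arrays lay above both reference arrays, while 62A and 62C lay below. MIS1 fell in 62A (−0.20 ± 0.06, limma adjusted p = 0.0346) and in 62C (−0.50 ± 0.06, limma adjusted p = 0.000191), and had a change of 0.09 ± 0.05 in 62B (limma adjusted p = 0.159). Without either 62B array the 62A call was lost (limma adjusted p = 0.101 in both cases), and over the class the change was −0.20 ± 0.17 (limma adjusted p = 0.48). Among the evolved strains MIS1, SHM1, SHM2 and ADE3 ran in the order of the 3' minus 5' control differences given above, highest in 62B and lowest in 62C. GCV3 ran in the reverse order, lowest in 62B and highest in 62C. The part of RNA integrity in these results was not tested.

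A moderated F statistic tested whether the evolved strains differed among themselves, which does not compare them with the reference. It passed for 6 of 8 members, against 28.8% of all genes: MIS1 (limma adjusted p = 0.000256), GCV2 (0.0103), ADE3 (0.0108), GCV1 (0.0128), GCV3 (0.0131) and SHM1 (0.0431). SHM2 (limma adjusted p = 0.12) and MTD1 (0.773) did not pass. Most of these calls rested on having both 62B arrays, as did most calls over all genes. Without either 62B array the spread comes from the reference pair alone. The difference of GCV2 between 62B and 62A was −0.43 without the first 62B array and −0.32 without the second.

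The differences between strains ran in opposite directions within the pathway. Against 62A, 62B was lower in GCV1 (−0.37 ± 0.07, limma adjusted p = 0.00926), GCV2 (−0.37 ± 0.07, 0.00729) and GCV3 (−0.26 ± 0.07, 0.0272) and higher in MIS1 (0.29 ± 0.06, 0.00943). These were 4 of 8 members, where 16.1% of all genes passed in either direction. Without the first 62B array the calls of GCV1, GCV3 and MIS1 were lost, and without the second all 4 were. Against 62B, 62C was lower in MIS1 (−0.59 ± 0.06, limma adjusted p = 8.8e-05), ADE3 (−0.31 ± 0.06, 0.00419) and SHM1 (−0.20 ± 0.06, 0.0249) and higher in GCV3 (0.28 ± 0.07, 0.0106). Those were again 4 of 8, against 33.6% of all genes. The SHM1 call was lost without either 62B array and the GCV3 call without the second.

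Between 62C and 62A 0 of 8 members passed in limma, where 2.42% of all genes did. The largest differences had 62C lower than 62A in MIS1 (−0.30 ± 0.07), GCV2 (−0.29 ± 0.08), GCV1 (−0.29 ± 0.08) and SHM2 (−0.16 ± 0.07). MIS1 (limma adjusted p = 0.054) lay close to the threshold and passed in 7 of 10 alternatives, quantile normalization (0.0311) and median centring (0.0266) among them. Leaving out either reference array left the differences between evolved strains as they were and took their error from the 62B pair alone. For GCV1 between 62C and 62A the SE was then 0.06, beside 0.08 with all arrays. The order of the strain levels, from lowest to highest, was 62B, 62C, 62A, reference in GCV1 and GCV2, and 62C, 62A, 62B, reference in SHM1, SHM2 and ADE3. Within these orders, 62B and 62C were not called different in GCV1 (0.08 ± 0.07) or GCV2 (0.08 ± 0.07). Nor were 62A and 62B in SHM1 (0.16 ± 0.06), ADE3 (0.16 ± 0.06) or SHM2 (0.0029 ± 0.059).

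Cytosol and mitochondrion hold separate copies of the same enzymes, and the within-array difference between such copies sets their changes side by side. SHM2 minus SHM1 was 1.69 and 1.69 on the reference arrays, 1.61 in 62A, 1.49 and 1.42 in 62B, and 1.49 in 62C. ADE3 minus MIS1 was 2.00 and 2.04 in the reference, 1.70 in 62A, 1.59 and 1.56 in 62B, and 1.86 in 62C. In both pairs all evolved arrays lay below both reference arrays. In 62B MIS1 itself was not lowered, as its arrays read above both reference arrays. The mean shift was −0.17 for SHM2 against SHM1 and −0.30 for ADE3 against MIS1 (exact permutation test, two-sided, p = 0.2 for each, 3 strains against 2 reference arrays). That is the smallest p the design allows, so it cannot reach 0.05.

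**Figure D3:**
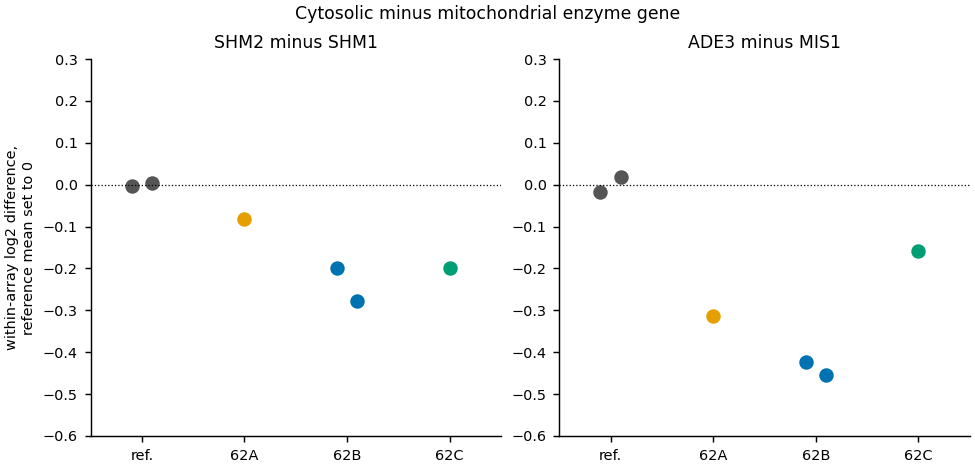
Within-array log2 difference of the cytosolic and the mitochondrial enzyme gene, with the mean of the reference arrays set to 0; each point is 1 array. All 4 evolved arrays lie below the reference in both pairs, by most in 62B for ADE3 minus MIS1.

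The members were alike in subgroups. Over the 6 arrays GCV1 was most like GCV2 (Pearson r = 0.99), GCV3 most like GCV2 (0.95), SHM1 most like ADE3 (0.98) and SHM2 most like MTD1 (0.97). For MIS1 the most alike member was SHM1 (0.77), and its r with GCV3 was −0.13. Among 770 other genes with an SD over the arrays of at least 0.2, the 5 most like the mean of the 8 members were HIS5, URA2, YCR102C, YLR460C and ASN1 (r from 0.994 to 0.999). HIS5, of histidine synthesis, read 8.84 and 8.91 in the reference, 8.42 in 62A, 8.37 in both 62B arrays and 8.24 in 62C. These correlations rest on 6 arrays of 4 strains, and the arrays of a pair are near copies of each other.

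Genes next to the pathway were read through 6 lists, of which 40 of 42 entries were measured as separate genes. Of these 40, 7 fell and 1 rose in the class comparison, beside 2.79% and 1.96% of all genes. The gene that rose was AGX1 (YFL030W), the aminotransferase that makes glycine from glyoxylate. It read 6.59 and 6.53 in the reference, 7.37 in 62A, 7.34 and 7.46 in 62B, and 7.78 in 62C, and was 1.94-fold higher over the class (log2 change 0.95 ± 0.13, limma adjusted p = 0.038). No evolved array overlapped the reference. GLY1 (YEL046C), the threonine aldolase that supplies glycine on glucose, moved the other way. It read 7.32 and 7.46 in the reference, 6.95 in 62A, 6.92 and 6.98 in 62B, and 6.90 in 62C (class change −0.46 ± 0.06, limma adjusted p = 0.0364).

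Strain by strain, AGX1 rose in 62A by 0.81 ± 0.07, in 62B by 0.84 ± 0.06 and in 62C by 1.22 ± 0.07, where 10.0%, 20.1% and 14.7% of all genes passed upward. It was higher in 62C than in 62B (0.38 ± 0.07, limma adjusted p = 0.0028) and than in 62A (0.41 ± 0.08, limma adjusted p = 0.0366). Of the 7 genes of serine and glycine supply, 4 fell in each strain, where 14.9%, 21.3% and 23.3% of all genes passed downward in 62A, 62B and 62C. In 62A and 62C these were GLY1 and the serine synthesis genes SER1, SER2 and SER33, and in 62B GLY1, SER2, SER3 and SER33. SER1, the phosphoserine aminotransferase, named after its values were seen, had changes of −0.46 ± 0.07 in 62A, −0.13 ± 0.06 in 62B and −0.60 ± 0.07 in 62C. It was higher in 62B than in 62A (0.33 ± 0.07, limma adjusted p = 0.0105).

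Of the 9 measured purine synthesis genes 6 fell in the class comparison, with a list median of −0.47, beside 2.79% of all genes. Under quantile normalization 3 of the 9 passed (ADE1, ADE4 and ADE8), and ADE2, ADE6 and ADE12 did not. ADE1 (YAR015W) read 10.24 and 10.36 in the reference, 9.63 in 62A, 9.82 and 9.81 in 62B, and 9.51 in 62C, a class change of −0.65 ± 0.10 (limma adjusted p = 0.0419). ADE6 (YGR061C) had a class change of −0.60 ± 0.11 (limma adjusted p = 0.0488, and 0.0553 under quantile normalization). In single strains 7, 7 and 8 of the 9 fell in 62A, 62B and 62C, where 14.9%, 21.3% and 23.3% of all genes passed downward.

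Of 12 genes of folate synthesis and use 0 passed in limma over the class (median −0.08), and 0 of 5 genes of the methyl cycle did (median −0.17). Over all genes only 2.79% passed downward and 1.96% upward in the class comparison. FOL1 (−0.33 ± 0.10, limma adjusted p = 0.0971), of folate synthesis, and MET13 (−0.32 ± 0.08, 0.0773), a methylenetetrahydrofolate reductase, had the largest changes of the first list. SAM1 (−0.35 ± 0.10, limma adjusted p = 0.0952), an S-adenosylmethionine synthetase, and SAH1 (−0.23 ± 0.07, 0.111), the S-adenosylhomocysteine hydrolase, had those of the second. In single strains 4, 4 and 5 of the 12 folate genes fell in 62A, 62B and 62C. Of the 5 methyl cycle genes 2, 4 and 1 did, where 14.9%, 21.3% and 23.3% of all genes passed downward. Upward, the folate genes ABZ2 in 62B (0.17 ± 0.06) and CDC21 in 62C (0.20 ± 0.06) passed, where 20.1% and 14.7% of all genes did. FOL1 and MET13 fell in each of the 3 strains, SAM1 likewise, and SAH1 in 62A and 62B.

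LPD1 encodes the L protein that glycine cleavage shares with other mitochondrial dehydrogenases. With 3 genes of lipoate synthesis and attachment it made up a further list. Of these 4 genes 0 passed in limma over the class (median −0.07), where 2.79% of all genes passed downward and 1.96% upward. LIP5 (−0.08 ± 0.06, limma adjusted p = 0.46) and AIM22 (−0.07 ± 0.08, 0.597) had the largest class changes of this list. In 62B LPD1 (−0.16 ± 0.05, limma adjusted p = 0.0306) and AIM22 (−0.21 ± 0.05, 0.00976) fell. LPD1 read 0.04 ± 0.06 above the reference in 62C.

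Of the regulators, 0 of 3 passed in limma over the class, where 2.79% of all genes passed downward and 1.96% upward. BAS1 (YKR099W), the activator named above, read 7.15 and 7.37 in the reference, 6.98 in 62A, 7.20 and 7.21 in 62B, and 6.75 in 62C. Its 62B arrays lay between the reference arrays, and 62A and 62C lay below both. It fell in 62A (−0.28 ± 0.08, limma adjusted p = 0.0382) and 62C (−0.51 ± 0.08, 0.0015), had a change of −0.06 ± 0.07 in 62B (0.561), and was lower in 62C than in 62B (−0.46 ± 0.08, 0.00328). Its order among the evolved strains was also that of the 3' minus 5' control differences. So was that of SER1, SER2, SER33, FOL1, FOL2, DFR1, MET7, FAU1, FMT1, MET13, SAM1, LIP5, ADE1, ADE6, ADE8, ADE12, ADE13 and ADE17. LPD1, LIP2, AIM22, SER3, CDC21, SAM2, ADE16 and GCN4 ran in the reverse order, lowest in 62B and highest in 62C. Some of these steps were small against their errors, and the share of all genes in either order is not given here. The part of RNA integrity was not tested. GCN4, the activator of amino acid synthesis genes, whose protein is set mainly by translation, fell in 62B alone among the 3 tests (−0.16 ± 0.05, limma adjusted p = 0.0201). Its change was −0.11 ± 0.06 in 62A, and in 62C it was −0.01 ± 0.06. PHO2, the partner of Bas1, had changes between −0.12 and −0.07 and passed in 0 of 3 strains by limma (unadjusted p from 0.0666 to 0.268, so 0 under 0.05).

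**Figure D4:**
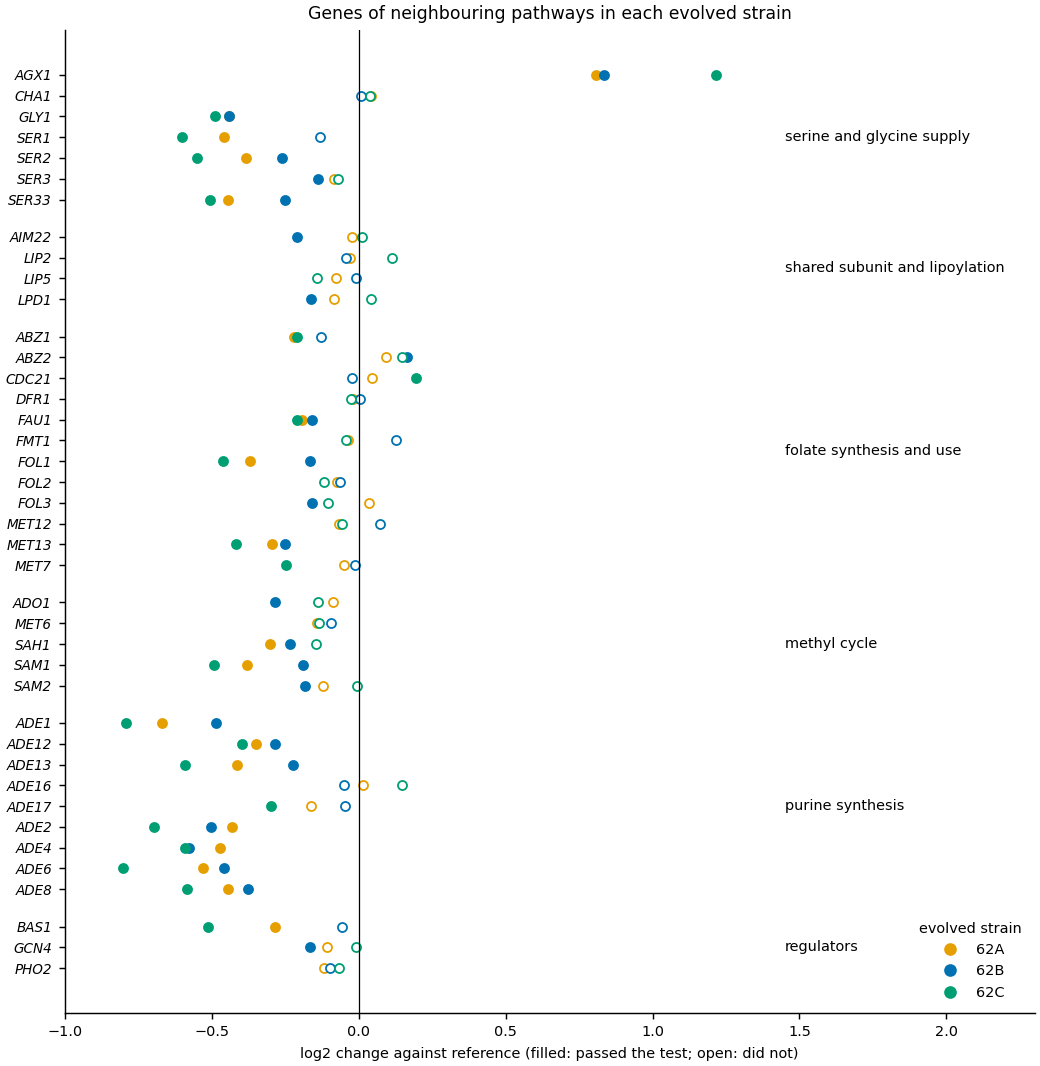
Log2 change against the reference of the 40 genes of neighbouring lists in 62A, 62B and 62C; filled points passed the test (adjusted p under 0.05) and open points did not. AGX1 stands apart on the right, while ADE1 and ADE6 in 62C (−0.79 and −0.80) are the lowest points.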

How the data were processed

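The deposited log2 expression values of 6 Affymetrix yeast arrays were made by the authors with RMA and affy, according to the labels' list of tools and per the submitters' processing notes. The sources used here give no versions, no genome build and no list of arrays normalized together. Values were not rescaled, and no scanner files were used, so the log base rests on the use of RMA. Probe sets were named through the platform annotation and RefSeq gene identifiers. Of 10928 probe sets, 5498 matched a gene of the species, giving 5449 genes, and for 47 genes with several probe sets the one of highest mean represents the gene. Coordinates and sequences are not printed.

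Fits used limma 3.58.1 in R 4.3.3 with Benjamini-Hochberg adjustment over 5449 genes. The class comparison took 62A, 62C and the averaged 62B arrays as 3 samples against 2 reference arrays. Strain comparisons used 1 term per strain over 6 arrays. Errors are standard errors of the fits. Both fits were run on simulated data with independent scatter on each array. For the class fit these data held no differences among the evolved strains, so they do not test it where strains differ. The number of arrays limits the precision.

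The 8 members and the neighbouring lists were chosen with earlier results of these data known. Named by rule were all members, 2 genes per list with the largest class change, all regulators, and the 5 genes most like the members' mean. The other genes were named after their values were seen. In the lists, LIP3 is another name of AIM22, and ADE5,7 was not analysed here.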

Additional observations from a re-analysis of the deposited data

Results flagged for a closer look

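For 6 genes the evolved strains differed from one another by the moderated F statistic of limma, so that their changes against the shared reference were unequal. The largest difference between strains is given for each. GCV1 was lower in 62B than in 62A by a log2 difference of −0.37 ± 0.07. GCV2 was lower in 62B than in 62A too (−0.37 ± 0.07). GCV3 was higher in 62C than in 62B (0.28 ± 0.07). SHM1 was lower in 62C than in 62B (−0.20 ± 0.06). ADE3 was also lower in 62C than in 62B (−0.31 ± 0.06). MIS1 showed the largest of these differences, with 62C below 62B by −0.59 ± 0.06. The strain 62C has 1 array, and the 3' minus 5' control difference was 1.73 on it, beside 2.01 and 2.05 on the 62B arrays. Its part in these differences was not tested.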

How the results depend on the processing

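The number of members called in the class comparison was 3, and it was 3 or 4 under quantile normalization, median centring, the mean of probe sets, removal of dim genes and a variance trend. Over all genes 236 to 341 passed in these. The member count was 6 with each array as 1 sample, 0 with strain as a random block and 8 without both 62B arrays. There 658, 21 and 1318 of all genes passed. Without 62A it was 0 and without 62C it was 1, where 6 and 99 of all genes passed. In limma 6 members had an unadjusted p under 0.05 without 62A, as had 1061 of all genes. With the random block 7 had, as had 945 of all genes. No class change of a member reversed, also without either reference array. Fewer samples enter the fits that leave out arrays, and the cause of the other changes was not tested. Calls among the evolved strains numbered 6, and most of them rested on having both 62B arrays, as did most calls over all genes. Calls in single strains stayed between 6 and 8 under every alternative run. Of the neighbouring genes 8 passed, but 5 did under quantile normalization. The shifts between copies of an enzyme kept their sign in every alternative run, from −0.22 to −0.14 for SHM2 against SHM1 and from −0.38 to −0.24 for ADE3 against MIS1. A difference that reversed was that of SHM2 between 62B and 62A, 0.0029, which was −0.0216 with median centring and without the first 62B array (−0.0209) and 0.0266 without the second, and never passed. Replicate numbers are shared by 62B and the reference, but the labels do not pair them, and the deviations of same-numbered arrays had a correlation of −0.06 over genes. With the replicate number as a block, the class fit counted each array as 1 sample and called 3 members. Its like without the block is the count of 6 above, and over all genes 211 passed with the block and 658 without. In the strain fits the block gave 7 in 62A, where MIS1 was lost (limma adjusted p = 0.0503). It gave 7 in 62B, 8 in 62C and 5 among strains. Between 62C and 62A the block brought MIS1 (limma adjusted p = 0.0201), GCV1 (0.0481) and GCV2 (0.0491) past the threshold. Signals of the members lay far above background, so dimness limits none of their values.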
